A study of Homo sapiens with 8 samples.

Results

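The comparison of stable ZDHHC8 knockdown with a control shRNA in drug-free 143B cells rests on 4 of the 8 libraries of the series. The shZDHHC8 group had 2 libraries from 143B cells stably expressing an shRNA against ZDHHC8, and the shControl group had 2 libraries from 143B cells stably expressing a control shRNA. Both groups received the vehicle, PBS, for 48 h, and all 4 libraries carry the same batch label, were treated with DNase I and were poly(A)-selected. 143B is a human osteosarcoma line, and every library of the series comes from it. The other 4 libraries, from the same shZDHHC8 and shControl cells after 48 h of cisplatin, entered the fit only to share its estimate of the spread and to test whether a knockdown difference was the same under the drug. The labels name 1 knockdown group and give no shRNA sequence, so effects of the shRNA through other transcripts, or of selecting stable cells, cannot be told apart from loss of ZDHHC8. They call the 2 libraries of a group biological replicates without saying how the cultures were separated, and p-values measure the spread between these libraries.

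ZDHHC8 belongs to the DHHC family of membrane enzymes, which attach palmitate to cysteines of other proteins through a thioester bond. The modification fixes proteins to membranes and is reversible, since acyl-protein thioesterases take the lipid off again. Substrates of the family include SRC-family kinases, small GTPases, receptors and adhesion proteins. Beta-catenin, the protein encoded by CTNNB1 and named in the title of the study, couples cadherins to the cytoskeleton and, when WNT ligands stop its destruction by the APC-AXIN-GSK3 complex, works with TCF factors as a transcriptional co-activator. Transcript levels, the only measurement here, do not show the amount, location or palmitoylation of any protein.

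Values were taken as FPKM, a unit the table does not name, that is read fragments scaled for transcript length and for the number mapped, for 21123 genes. The depth behind them is unknown, and the column totals were 384281 and 386584 in the shZDHHC8 libraries against 369660 and 364719 in the shControl libraries. A log2 change is the mean of log2(FPKM + 1) in shZDHHC8 libraries minus that in shControl libraries, fitted with limma, and for genes near 1 FPKM it is smaller than the true fold. Where a gene is said to rise or fall by a number, that number is its log2 change. A gene was called where the Benjamini-Hochberg adjusted p over all 13495 tested genes was below 0.05. Across the tested genes the Pearson correlation of log2 values was 0.995 between the shZDHHC8 libraries and 0.996 between the shControl libraries, and 0.966 to 0.968 between the groups. Since the strandedness of the libraries is not given in the sources used here, reads of overlapping genes could not be assigned. Of 15 osteoblast and mesenchymal markers, 12 were analysed here, of which 8 were at 1 FPKM or more in all 4 libraries, among them VIM, TWIST1, ZEB1 and RUNX2, the osteoblast master regulator, at 10.9 and 9.64 FPKM in shZDHHC8 cells against 11.8 and 14.1 in shControl cells. The late bone matrix markers IBSP and BGLAP were below 1 FPKM in all 4, as were COL1A2 and PDGFRB. The summed level of the 12 was 2456 and 2238 FPKM in shZDHHC8 cells against 1997 and 1936 in shControl cells, most of it from VIM, the mesenchymal intermediate filament, at 2110 and 1907 FPKM (shZDHHC8) against 1790 and 1733 FPKM (shControl). The call of VIM (log2 change 0.19) was lost without shControl replicate 2 or shZDHHC8 replicate 1 (limma adjusted p = 0.0846 and 0.0938) and after scaling to a common total (0.0911). SPP1, the bone matrix protein osteopontin, SPARC, the matrix glycoprotein osteonectin, and CDH2, N-cadherin, rose by 0.91, 0.71 and 0.47, whereas COL1A1, the main bone collagen, fell by 0.85. RUNX2 fell by 0.31, a call lost without either replicate 2 (limma adjusted p = 0.243 for shControl and 0.199 for shZDHHC8). Of 14 epithelial markers, 12 were analysed here, of which 8 were at 1 FPKM or more in all 4 libraries. CDH1 and ESRP1 were below 1 FPKM in all 4 libraries, but keratins were high, KRT8 at 450.4 and 439.1 FPKM in shZDHHC8 cells against 653.5 and 643.6 in shControl cells. The epithelial markers summed to 741.5 and 729.8 FPKM in shZDHHC8 cells against 1060 and 1047 in shControl cells, with KRT8 the main part. KRT18, the partner keratin of KRT8, was not called (log2 change -0.03 ± 0.041 SE, limma adjusted p = 0.562), while CLDN4, a tight-junction claudin, went the other way, with 13.2 and 10.9 FPKM in shZDHHC8 cells against 3.04 and 3.31 FPKM in shControl cells (log2 change 1.64 ± 0.099 SE, limma adjusted p = 4.76e-06). TP63, the regulator of basal epithelial identity, was too low to be tested, at 1.48 and 0.926 FPKM (shZDHHC8) against 0.158 and 0.231 FPKM (shControl). Immune markers other than CD68, a lysosomal glycoprotein, were below 1 FPKM in all 4 libraries, with CD3E and NKG7 at 0. The endothelial marker VWF was below 1 FPKM and KDR had 1.03 and 1.13 FPKM in shZDHHC8 cells against 1.05 and 1.04 FPKM in shControl cells. CD68 had 45.8 and 41.4 FPKM in shZDHHC8 cells against 14.5 and 16.0 FPKM in shControl cells (log2 change 1.46 ± 0.079 SE, limma adjusted p = 2.82e-06). Overlap with another gene of the table makes the values of VIM, ZEB1, RUNX2, BGLAP, KRT8, KRT18 and CD68 uncertain. In these bulk libraries fewer cells of a kind and less RNA per cell cannot be told apart.

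ZDHHC8 itself (ENSG00000099904, hg38 chromosome 22, positions 20129456 to 20148007) had 14.3 and 9.81 FPKM in shZDHHC8 cells against 23.7 and 23.1 FPKM in shControl cells. Both knockdown libraries lay below both controls, but the knockdown libraries also differed from each other more than the controls did. The mean ratio of shZDHHC8 to shControl was 0.515, so a large part of the transcript remained (log2 change -0.92 ± 0.13 SE, limma adjusted p = 0.000472). Leaving out shZDHHC8 replicate 1 or 2 gave log2 changes of -1.18 and -0.67, and the call held in each case.

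Of the 13495 tested genes, 3602 (26.7%) were called higher and 3373 (25%) lower with the knockdown, so a gene list is read against shares of about these sizes. Most of the changes were small, since the median absolute log2 change was 0.235, and 180 of the higher and 220 of the lower genes moved by 1 or more on the log2 scale. The median log2 change of all genes was 0.015, or -0.043 after scaling the libraries to a common total, which gave 2897 higher and 4051 lower. Long non-coding genes were called higher in 303 of 1154 cases and lower in 157.

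The largest rise among protein-coding genes was that of TM4SF19, a protein with 4 membrane spans, which had 46.0 and 41.7 FPKM in shZDHHC8 cells against 1.62 and 1.51 FPKM in shControl cells (log2 change 4.13 ± 0.063 SE, limma adjusted p = 8.37e-09). ANGPTL4, a secreted inhibitor of lipoprotein lipase, had 20.7 and 21.7 FPKM in shZDHHC8 cells against 1.91 and 1.84 FPKM in shControl cells (log2 change 2.95 ± 0.068 SE, limma adjusted p = 5.71e-08). SP140, a chromatin reader of nuclear bodies best known from immune cells, had 10.99 and 10.8 FPKM in shZDHHC8 cells against 0.730 and 0.774 FPKM in shControl cells (log2 change 2.77 ± 0.068 SE, limma adjusted p = 5.78e-08). In all of these the groups were separated by a wide gap, and the 2 libraries of each group lay close together. Groups without overlap were a condition for being chosen here. MILR1, an inhibitory immunoglobulin receptor of mast cells, was at 22.2 and 20.0 FPKM (shZDHHC8) against 2.24 and 2.30 FPKM (shControl) (log2 change 2.76). CNIH3, an auxiliary subunit of glutamate receptors, was at 19.1 and 21.3 FPKM (shZDHHC8) against 3.27 and 3.38 FPKM (shControl) (log2 change 2.29). Enzymes made up much of the remainder. AKR1C2, an aldo-keto reductase of steroids, was at 25.7 and 30.2 FPKM (shZDHHC8) against 5.42 and 5.29 FPKM (shControl) (log2 change 2.18), and its neighbours AKR1C1 and AKR1C3 rose by 1.50 and 1.57; the genes of this cluster are near-identical, so reads may be shared among them. AOX1, aldehyde oxidase, was at 7.60 and 7.76 FPKM (shZDHHC8) against 1.15 and 1.18 FPKM (shControl) (log2 change 2.01), and UPP1, uridine phosphorylase, at 59.1 and 55.8 FPKM (shZDHHC8) against 14.3 and 14.5 FPKM (shControl) (log2 change 1.93). At the cell surface, DPP4, a dipeptidyl peptidase that trims chemokines and incretins, was at 24.6 and 27.0 FPKM (shZDHHC8) against 5.35 and 6.36 FPKM (shControl) (log2 change 1.97). GPNMB, a transmembrane glycoprotein of lysosome-related organelles also called osteoactivin, was at 5.27 and 5.66 FPKM (shZDHHC8) against 0.558 and 0.694 FPKM (shControl) (log2 change 1.99). MMP2, the secreted gelatinase A, had 100.3 and 101 FPKM in shZDHHC8 cells against 26.2 and 24.7 FPKM in shControl cells (log2 change 1.94 ± 0.048 SE, limma adjusted p = 5.78e-08). NDUFC2-KCTD14, a readthrough transcript, was at 38.5 and 44.7 FPKM (shZDHHC8) against 6.55 and 4.66 FPKM (shControl) (log2 change 2.70 ± 0.73 SE, limma adjusted p = 0.0137), and lost its call without shControl replicate 2 or either shZDHHC8 replicate (limma adjusted p = 0.0669, 0.05003 and 0.0676). Reads of TM4SF19, SP140, CNIH3, AKR1C2, DPP4 and NDUFC2-KCTD14 could in part belong to overlapping genes.

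EGR1, a zinc-finger factor switched on within minutes of growth-factor signalling, showed the largest fall, with 1.97 and 2.15 FPKM in shZDHHC8 cells against 28.1 and 29.7 FPKM in shControl cells (log2 change -3.29 ± 0.082 SE, limma adjusted p = 5.78e-08). IDO1, which breaks down tryptophan and is induced by interferon, had 1.18 and 1.70 FPKM in shZDHHC8 cells against 19.4 and 19.4 FPKM in shControl cells (log2 change -3.07 ± 0.12 SE, limma adjusted p = 5.99e-07). C3, the central complement component, had 1.31 and 1.16 FPKM in shZDHHC8 cells against 15.5 and 14.4 FPKM in shControl cells (log2 change -2.83 ± 0.077 SE, limma adjusted p = 1.08e-07). None of these knockdown libraries came near a control library, but groups without overlap were again a condition for being chosen. The cytokine IL6 had 1.64 and 2.12 FPKM in shZDHHC8 cells against 15.7 and 15.6 FPKM in shControl cells (log2 change -2.53 ± 0.08 SE, limma adjusted p = 2.47e-07). Keratins of basal epithelium fell steeply: KRT17 was at 3.11 and 2.97 FPKM (shZDHHC8) against 26.9 and 27.3 FPKM (shControl) (log2 change -2.80) and KRT14 at 0.964 and 1.51 FPKM (shZDHHC8) against 10.1 and 10.0 FPKM (shControl) (log2 change -2.32). UPK3B, a uroplakin of urothelium and mesothelium, was at 1.81 and 1.21 FPKM (shZDHHC8) against 12.8 and 13.5 FPKM (shControl) (log2 change -2.51). SAMD11, a nuclear SAM-domain protein, was at 1.77 and 1.30 FPKM (shZDHHC8) against 14.1 and 14.1 FPKM (shControl) (log2 change -2.58). VAV3, an exchange factor for small GTPases, was at 1.01 and 0.966 FPKM (shZDHHC8) against 9.97 and 9.25 FPKM (shControl) (log2 change -2.41), and the WNT ligand WNT10A at 1.77 and 1.68 FPKM (shZDHHC8) against 10.4 and 11.1 FPKM (shControl) (log2 change -2.11). UGT1A6, a glucuronosyltransferase that shares its last exons with other UGT1A genes, was at 1.89 and 2.79 FPKM (shZDHHC8) against 15.6 and 18.3 FPKM (shControl) (log2 change -2.43). C17orf49, which lies within a readthrough locus with RNASEK, was at 3.89 and 3.58 FPKM (shZDHHC8) against 21.2 and 20.4 FPKM (shControl) (log2 change -2.20). IDO1, C3, IL6, SAMD11, UGT1A6 and C17orf49 overlap other listed genes, which makes their values uncertain.

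**Figure D1:**
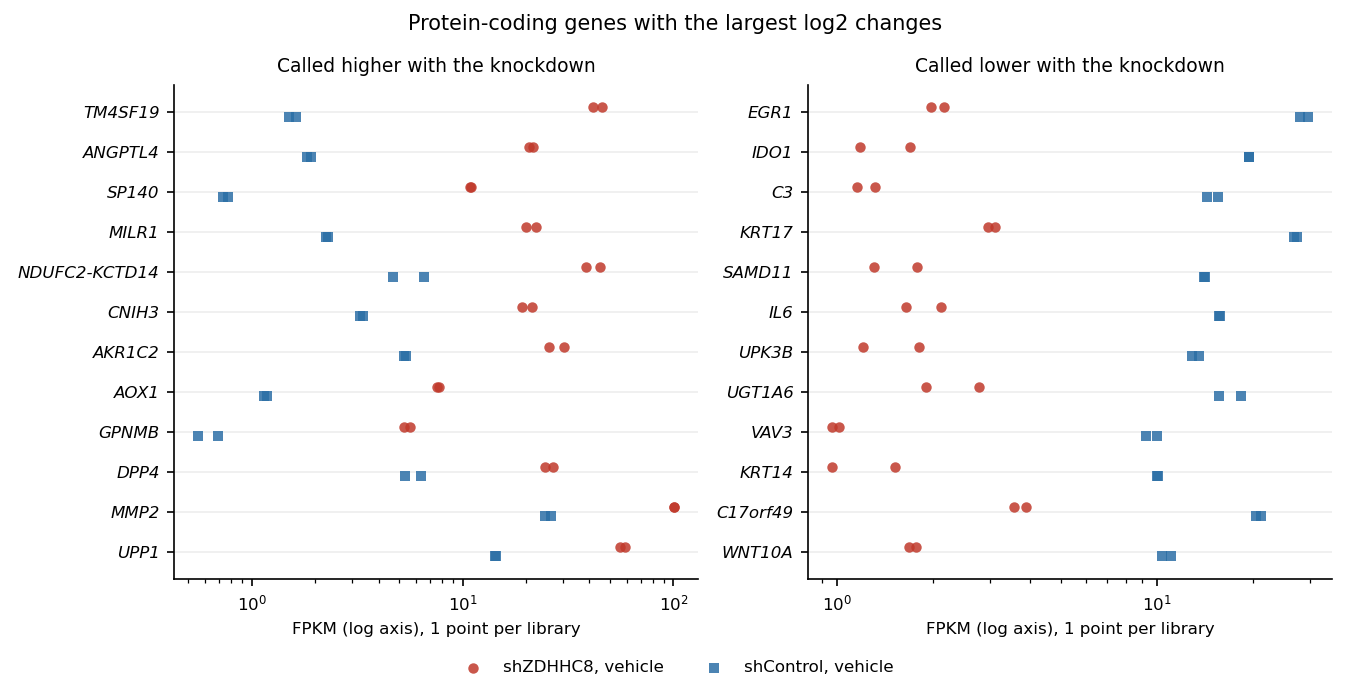
FPKM of the 12 called protein-coding genes with the largest rises (left) and the 12 with the largest falls (right), with 1 point for each shZDHHC8 (circles) and shControl (squares) library on a log axis. In every gene both libraries of a group lie on the same side of both libraries of the other, which was a condition for being chosen, and EGR1 stands at 1.97 and 2.15 FPKM in shZDHHC8 cells against 28.1 and 29.7 FPKM in shControl cells.

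By difference of level, outside the mitochondrial genome, the largest rises were in very abundant transcripts. FTH1, the iron-storage ferritin heavy chain, had 17634 and 16275 FPKM in shZDHHC8 cells against 13245 and 12803 FPKM in shControl cells (log2 change 0.38 ± 0.051 SE, limma adjusted p = 0.000362). S100A6, a calcium-binding protein, had 2021 and 1952 FPKM in shZDHHC8 cells against 1272 and 1202 FPKM in shControl cells (log2 change 0.68 ± 0.053 SE, limma adjusted p = 1.63e-05). TMSB10 and TMSB4X, the thymosins that hold actin monomers, rose by 0.46 and 0.64, and LGALS1, the galactose-binding galectin 1, by 0.54. GAPDH of glycolysis rose by 0.28, PSAP, the precursor of the saposins that help lysosomal enzymes degrade sphingolipids, by 1.10, and the metal-binding metallothionein MT2A by 0.68. The call of FTH1 was lost without the filter on low values. Among the 8 falls picked by difference of level, the steepest was that of HSP90AB1, the constitutive cytosolic HSP90, which had 145 and 155 FPKM in shZDHHC8 cells against 594 and 591 FPKM in shControl cells (log2 change -1.98 ± 0.046 SE, limma adjusted p = 5.71e-08). TUBB, a beta-tubulin, had 626 and 655 FPKM in shZDHHC8 cells against 969 and 973 FPKM in shControl cells (log2 change -0.60 ± 0.041 SE, limma adjusted p = 8.99e-06). PTMA, the nuclear protein prothymosin alpha, had 638 and 655 FPKM in shZDHHC8 cells against 928 and 901 FPKM in shControl cells (log2 change -0.50 ± 0.12 SE, limma adjusted p = 0.00677). These genes have processed pseudogene copies, so reads could be split among near-identical sequences. The collagenase MMP1, at 231 and 249 FPKM (shZDHHC8) against 498 and 485 FPKM (shControl), fell by 1.03, ID1, an inhibitor of helix-loop-helix factors, by 1.39, IFITM3, an interferon-induced membrane protein that blocks viral entry, by 1.08, and DHRS2, a short-chain dehydrogenase, by 1.04 on the log2 scale. The loci of FTH1, S100A6, TMSB10, GAPDH, TUBB, MMP1 and IFITM3 overlap other genes, so their values are uncertain.

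The palmitoyltransferases, ZDHHC8 included, had 3 of 19 tested members called higher and 5 lower (median log2 change -0.009, against 0.015 over all genes tested). Among all genes tested 26.7% were called higher and 25% lower, so members of this list were not called more often than genes in general. ZDHHC18 had 5.34 and 5.28 FPKM in shZDHHC8 cells against 13.3 and 13.1 FPKM in shControl cells (log2 change -1.17 ± 0.058 SE, limma adjusted p = 1.76e-06), a larger fold than that of the target itself. ZDHHC7, which with ZDHHC3 forms a Golgi pair, had 18.5 and 17.8 FPKM in shZDHHC8 cells against 33.1 and 32.5 FPKM in shControl cells (log2 change -0.82 ± 0.056 SE, limma adjusted p = 8.37e-06). Both of these were apart from the controls by far more than the spread between libraries. ZDHHC6, the enzyme of calnexin in the endoplasmic reticulum, went the other way, with 25.2 and 27.6 FPKM in shZDHHC8 cells against 17.1 and 17.0 FPKM in shControl cells (log2 change 0.60 ± 0.056 SE, limma adjusted p = 4.59e-05). ZDHHC4 rose by 0.34 and ZDHHC20, known to act on EGFR, by 0.20, a call lost without shControl replicate 1 or shZDHHC8 replicate 2 (limma adjusted p = 0.101 and 0.0884) and after scaling to a common total (0.0688). ZDHHC13 fell by 0.32, a call lost without shControl replicate 2 (limma adjusted p = 0.0506), and ZDHHC23 by 0.29, a call lost without shControl replicate 1 or shZDHHC8 replicate 2 (0.118 and 0.117). ZDHHC5, the closest relative of ZDHHC8, was at 30.5 and 32.9 FPKM (shZDHHC8) against 31.9 and 32.9 FPKM (shControl), with overlapping groups (log2 change -0.03 ± 0.053 SE, limma adjusted p = 0.669). ZDHHC2, ZDHHC9, ZDHHC16, ZDHHC17, ZDHHC21 and ZDHHC24 were not called, with log2 changes between -0.01 and 0.13. ZDHHC3 and ZDHHC11 were at -0.30 and -0.22 without a call, and were called lower without shZDHHC8 replicate 1 (limma adjusted p = 0.00597 and 0.0332), ZDHHC3 also after scaling to a common total (0.0495). ZDHHC12 (-0.11) and ZDHHC14 (0.24) were not called either, and ZDHHC1 and ZDHHC11B were too low to be tested.

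The thioesterases that remove palmitate had 2 of 10 tested members called higher and 2 lower, against 26.7% and 25% of all genes tested. LYPLA2, acyl-protein thioesterase 2, had 53.8 and 56.1 FPKM in shZDHHC8 cells against 38.5 and 37.7 FPKM in shControl cells (log2 change 0.52 ± 0.051 SE, limma adjusted p = 6.17e-05). PPT1, the lysosomal palmitoyl-protein thioesterase, had 68.8 and 75.5 FPKM in shZDHHC8 cells against 50.2 and 48.8 FPKM in shControl cells (log2 change 0.53 ± 0.053 SE, limma adjusted p = 6.35e-05). ABHD17C, a thioesterase of the ABHD17 family that acts on NRAS, had 2.92 and 3.28 FPKM in shZDHHC8 cells against 5.80 and 4.72 FPKM in shControl cells (log2 change -0.61 ± 0.098 SE, limma adjusted p = 0.000958). PPT2 fell by 0.55, a call lost without either shControl replicate or shZDHHC8 replicate 2 (limma adjusted p = 0.115, 0.0929 and 0.199). LYPLA1, ABHD10, ABHD16A, ABHD17A, ABHD17B and LYPLAL1 had log2 changes between -0.23 and 0.19 and were not called. Overlap with another gene of the table makes the values of PPT2 and LYPLAL1 uncertain.

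CTNNB1 (ENSG00000168036, hg38 chromosome 3, positions 41194741 to 41260096) had 51.7 and 53.7 FPKM in shZDHHC8 cells against 57.8 and 57.9 FPKM in shControl cells (log2 change -0.13 ± 0.048 SE, limma adjusted p = 0.0456). The call was lost when any 1 vehicle library was left out, with log2 changes of -0.16 to -0.11, and in a fit of the 4 vehicle libraries alone (limma adjusted p = 0.073). Around it, the complex was mixed, with 2 of 19 tested members called higher and 7 lower. PYGO2 and BCL9, which bridge beta-catenin to the transcription machinery, fell by 0.74 and 0.54, and BCL9L by 0.39. TCF7L1, a TCF factor that represses WNT targets, had 4.62 and 3.86 FPKM in shZDHHC8 cells against 7.93 and 7.59 FPKM in shControl cells (log2 change -0.74 ± 0.093 SE, limma adjusted p = 0.000222). CTNNBIP1, which binds beta-catenin and keeps it from TCF, had 8.58 and 9.32 FPKM in shZDHHC8 cells against 4.77 and 4.43 FPKM in shControl cells (log2 change 0.83 ± 0.073 SE, limma adjusted p = 3.18e-05). Of the destruction machinery GSK3A fell by 0.48 and CSNK1E rose by 0.25, while CSNK1D fell by 0.19, a call lost without shControl replicate 1 or either shZDHHC8 replicate (limma adjusted p = 0.264, 0.114 and 0.0977). APC, AXIN1, GSK3B, CSNK1A1, BTRC, FBXW11 and AMER1 were not called, at -0.12 to 0.23, nor were TCF7 (0.21), TCF7L2 (-0.18) and PYGO1 (0.09). LEF1 and AXIN2, a standard WNT target, were too low to be tested, AXIN2 at 0.519 and 0.311 FPKM (shZDHHC8) against 0.369 and 0.666 FPKM (shControl). Reads of CTNNB1, PYGO2, BCL9L, CSNK1E, CSNK1D, CSNK1A1, TCF7, TCF7L2, PYGO1 and LEF1 could in part belong to overlapping genes.

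Upstream, WNT ligands, receptors and transducers had 4 of 28 tested members called higher and 14 lower. PORCN, the enzyme that acylates WNT ligands before secretion, had 24.7 and 21.8 FPKM in shZDHHC8 cells against 50.3 and 53.2 FPKM in shControl cells (log2 change -1.12 ± 0.063 SE, limma adjusted p = 3.27e-06). WLS, which carries acylated WNTs to the surface, had 10.2 and 10.3 FPKM in shZDHHC8 cells against 6.09 and 5.81 FPKM in shControl cells (log2 change 0.70 ± 0.07 SE, limma adjusted p = 6.7e-05). FZD2 and the co-receptor LRP5 both fell by 0.79, and the ligand WNT7B by 0.55. The WNT target genes had 2 of 14 tested members called higher and 6 lower. Without a filter on low values 10 were called lower, but out of a larger set of up to 21 members that takes in genes near 0. MMP7, the protease matrilysin, had 1.39 and 1.49 FPKM in shZDHHC8 cells against 7.84 and 6.96 FPKM in shControl cells (log2 change -1.78 ± 0.11 SE, limma adjusted p = 4.67e-06). CCND1, cyclin D1, had 89.5 and 90.9 FPKM in shZDHHC8 cells against 46.7 and 47.7 FPKM in shControl cells (log2 change 0.92 ± 0.041 SE, limma adjusted p = 9.75e-07), and SOX4 fell by 0.63. WLS and CCND1 overlap other listed genes, which makes their values uncertain.

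The 60 gene lists were written from general knowledge of the tissue and the pathway, but with earlier results of these data known. Over them, the share of members called ranged from lists almost wholly lower to lists almost wholly higher. The lowest medians were those of chemokines, keratins, NF-kB feedback genes, the late steps of cholesterol synthesis, YAP and TEAD targets and mitosis. The highest were those of the IL1 family, metallothioneins, cytosolic ribosomal proteins, ATF4 targets, PPAR targets and the lysosomal membrane. Counts of 1 to 3 members called against the direction of a list often moved by 1 or 2 when a single library was left out, as for the 2 higher NF-kB genes, of which none was called without either shControl replicate or shZDHHC8 replicate 1. The medians of the lists on DNA replication, nucleotide synthesis, p53 targets, the unfolded protein response and ABC exporters lay near 0 and changed sign when libraries were scaled to a common total. Under that scaling the balance of calls also turned to more lower than higher members for nucleotide synthesis (5 higher and 9 lower), p53 targets (9 and 10), nucleotide excision repair (4 and 5) and integrins (5 and 6).

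**Figure D2:**
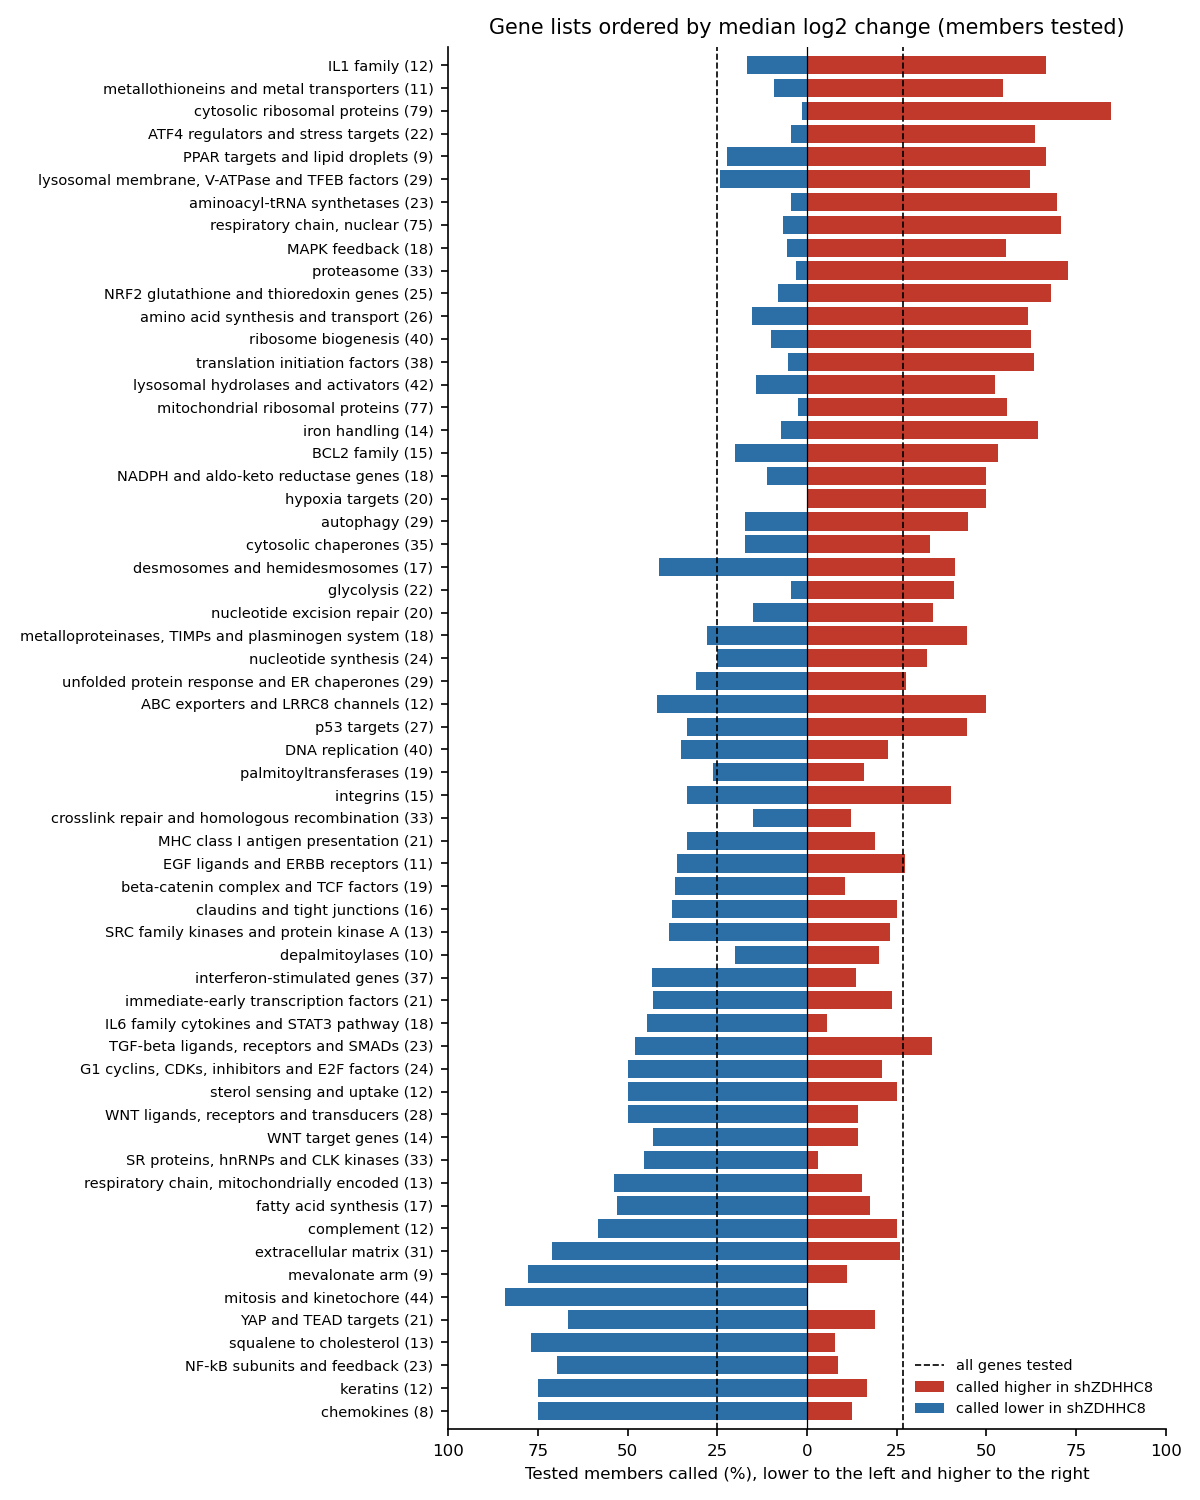
Share of the tested members of each of the 60 gene lists called higher (right) or lower (left) in shZDHHC8 cells, with the number of members tested in parentheses, ordered by median log2 change. Dashed lines mark the shares over all genes tested, 26.7% higher and 25% lower; for mitosis and kinetochore genes no bar reaches to the right.

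Genes of sterol and fatty acid synthesis fell more often than they rose in shZDHHC8 cells. These genes are switched on together by the SREBP factors, which leave the endoplasmic reticulum and are then cut free when membrane cholesterol is low. The list of sterol sensing and uptake had 3 of 12 tested members called higher and 6 lower. SREBF2, the gene of the sterol-directed SREBP, had 28.1 and 26.7 FPKM in shZDHHC8 cells against 57.4 and 58.5 FPKM in shControl cells (log2 change -1.05 ± 0.048 SE, limma adjusted p = 1.11e-06). SREBF1, the gene of the fatty-acid-directed one, had 4.65 and 4.73 FPKM in shZDHHC8 cells against 9.84 and 9.86 FPKM in shControl cells (log2 change -0.93 ± 0.065 SE, limma adjusted p = 9.82e-06). INSIG1, which holds SREBP back and is itself its target, had 10.3 and 9.99 FPKM in shZDHHC8 cells against 19.4 and 20.7 FPKM in shControl cells (log2 change -0.92 ± 0.059 SE, limma adjusted p = 6.33e-06). Against that direction NPC1 and NPC2, which export cholesterol from lysosomes, rose by 0.56 and 0.98, and INSIG2, the INSIG that is not an SREBP target, by 0.94. The mevalonate arm had 1 of 9 tested members called higher and 7 lower, 4 of them without shZDHHC8 replicate 1. HMGCS1 had 23.4 and 23.8 FPKM in shZDHHC8 cells against 36.9 and 38.6 FPKM in shControl cells (log2 change -0.65 ± 0.066 SE, limma adjusted p = 6.98e-05). ACAT2, the first step, fell by 0.86. The steps from squalene to cholesterol had 1 of 13 tested members called higher and 10 lower. DHCR7, a reductase of the last steps, had 14.2 and 14.3 FPKM in shZDHHC8 cells against 33.6 and 31.0 FPKM in shControl cells (log2 change -1.12 ± 0.057 SE, limma adjusted p = 1.99e-06). Fatty acid synthesis had 3 of 17 tested members called higher and 9 lower, with 1 higher without shControl replicate 1. SCD, the desaturase that makes oleate, had 7.30 and 8.49 FPKM in shZDHHC8 cells against 30.8 and 32.1 FPKM in shControl cells (log2 change -1.87 ± 0.074 SE, limma adjusted p = 5.41e-07). FADS2 of polyunsaturated synthesis fell by 1.16, ACACA and FASN, the committed step and the synthase, by 0.80 and 0.70. PPAR targets and lipid droplet genes had 6 of 9 tested members called higher and 2 lower, led by ANGPTL4. G0S2, an inhibitor of the triglyceride lipase PNPLA2, had 104 and 98.3 FPKM in shZDHHC8 cells against 40.7 and 34.6 FPKM in shControl cells (log2 change 1.41 ± 0.081 SE, limma adjusted p = 3.75e-06), and PNPLA2 itself fell by 0.79. The loci of SREBF2, SREBF1, NPC1, NPC2, ACAT2, DHCR7, FADS2 and PNPLA2 overlap other genes, so their values are uncertain.

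**Figure D3:**
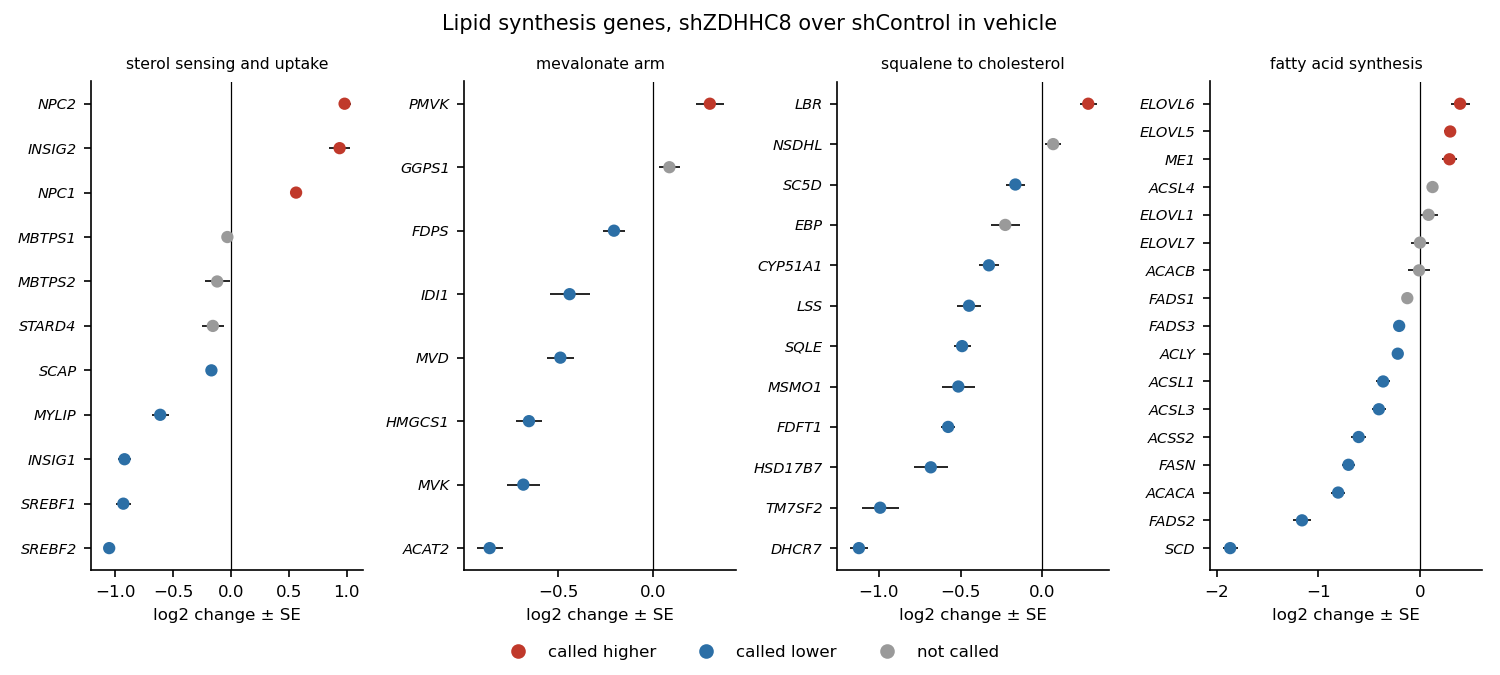
Log2 change (x axis, shZDHHC8 over shControl, ± SE from limma) of tested genes in 4 lipid lists, coloured by call. Most points lie left of 0, SCD farthest at -1.87, while NPC2 and INSIG2 lie to the right at 0.98 and 0.94.

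The sterol response element is the DNA sequence that SREBP factors bind. In RefSeq promoter windows (GRCh38.p14, 250 bases before to 50 after the start, the first listed start of a gene), the core TCACNCCAC was searched on both strands. Of the 44 members of the 4 lipid lists with a window, 1 held it (2.27%), against 1% of the windows of 9954 tested genes. That window belongs to SREBF2, which is shown because the factor's own gene was the steepest-falling sensor. The stretch, at chr22:41832946-41833005 on the plus strand, has the match in capitals, starting at position -133 from the gene's start.
SREBF2: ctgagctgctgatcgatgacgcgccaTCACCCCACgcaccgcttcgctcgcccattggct

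Mitosis genes were among the most uniform groups, with 0 of 44 tested members called higher and 37 lower and a median of -0.45. KIF4A, the chromosome-bound kinesin, had 6.99 and 7.40 FPKM in shZDHHC8 cells against 17.1 and 16.9 FPKM in shControl cells (log2 change -1.14 ± 0.066 SE, limma adjusted p = 4.07e-06). MKI67, the proliferation marker, had 23.9 and 24.6 FPKM in shZDHHC8 cells against 45.0 and 48.4 FPKM in shControl cells (log2 change -0.92 ± 0.053 SE, limma adjusted p = 3.91e-06). PRC1, which bundles the central spindle and binds KIF4A, had 26.3 and 22.2 FPKM in shZDHHC8 cells against 51.1 and 41.6 FPKM in shControl cells (log2 change -0.91 ± 0.11 SE, limma adjusted p = 0.000203). KIF20A fell by 0.88, CENPE of the kinetochore by 0.87 and HMMR by 0.79. Of the core kinases, CDK1 fell by 0.44, AURKB by 0.54 and PLK1 by 0.34. AURKA was at a log2 change of -0.18, a call lost without either shControl replicate or shZDHHC8 replicate 1 (limma adjusted p = 0.0648, 0.0777 and 0.0918). Summed over the list, the level was 1394 and 1436 FPKM in shZDHHC8 cells against 1855 and 1840 in shControl cells. Overlap with another gene of the table makes the values of KIF4A, PRC1, KIF20A and PLK1 uncertain.

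Genes that peak in late G2 and mitosis often carry a cell cycle homology region near their start, through which the DREAM and MuvB complexes act. Its core TTTGAA, on either strand, was in 28 of 38 member windows (73.7%), against 9.33% of the windows of tested genes. Of the 28 with it, 25 were called lower, with a median log2 change of -0.51, and of the 10 without it 8, with a median of -0.30. The windows below are shown because they belong to members with large falls and place the core between -34 and -20 from the start. They lie at chrX:70290044-70290103 (plus strand, core at -34) for KIF4A, chr10:128126419-128126478 (minus, -29) for MKI67, chr15:90994522-90994581 (minus, -20) for PRC1, chr5:163460578-163460637 (plus, -28) for HMMR and chr1:37692467-37692526 (plus, -23) for CDCA8. The core is in capitals and each runs 5′ to 3′ in the direction of the gene.
KIF4A: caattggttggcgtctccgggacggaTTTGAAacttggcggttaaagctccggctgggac
MKI67: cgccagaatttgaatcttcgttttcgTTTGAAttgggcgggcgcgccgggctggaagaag
PRC1: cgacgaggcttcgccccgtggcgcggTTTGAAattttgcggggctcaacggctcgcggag
HMMR: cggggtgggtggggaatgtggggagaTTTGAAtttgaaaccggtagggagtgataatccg
CDCA8: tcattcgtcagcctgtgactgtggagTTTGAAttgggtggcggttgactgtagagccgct
HMMR and MKI67 each hold a second core within the printed stretch, in lower case.

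DNA replication had 9 of 40 tested members called higher and 14 lower and a median of 0.0021; without shControl replicate 2 or shZDHHC8 replicate 1 the lower count was 6 and 9. LIG1, the replicative ligase, fell by 0.47 and the licensing factor CDT1 by 0.41, while RPA2, a subunit of the single-strand binding protein, had 38.1 and 38.9 FPKM in shZDHHC8 cells against 23.5 and 22.9 FPKM in shControl cells (log2 change 0.71 ± 0.045 SE, limma adjusted p = 6.33e-06). Nucleotide synthesis had 8 of 24 tested members called higher and 6 lower, with 4 higher without shControl replicate 1. TK1, thymidine kinase, had 52.2 and 48.7 FPKM in shZDHHC8 cells against 102 and 99.7 FPKM in shControl cells (log2 change -0.99 ± 0.055 SE, limma adjusted p = 3.35e-06). TYMS and RRM2 of deoxynucleotide supply fell by 0.63 and 0.58, and ATIC of purine synthesis rose by 0.55. Cyclins, CDKs, their inhibitors and E2F factors had 5 of 24 tested members called higher and 12 lower, with 3 higher without shControl replicate 2 or shZDHHC8 replicate 2. The inhibitor CDKN2C fell by 1.19 and E2F8 by 1.18, whereas E2F7, its partner repressor, had 25.8 and 27.1 FPKM in shZDHHC8 cells against 9.81 and 9.62 FPKM in shControl cells (log2 change 1.36 ± 0.049 SE, limma adjusted p = 3.58e-07). P53 targets had 12 of 27 tested members called higher and 9 lower, with 7 higher without shControl replicate 1 or shZDHHC8 replicate 1 and 5 lower without either replicate 2. SESN2, BBC3 and PMAIP1, of which the first is also counted in the ATF4 list, rose by 1.19, 0.99 and 0.73, while DDB2 fell by 0.67. CDKN1A, the p21 gene, was at 3.55 and 3.32 FPKM (shZDHHC8) against 4.03 and 4.06 FPKM (shControl), with a log2 change of -0.19 whose call was lost without either shControl replicate or shZDHHC8 replicate 2 (limma adjusted p = 0.104, 0.12 and 0.145). The BCL2 family had 8 of 15 tested members called higher and 3 lower, with 5 higher without shControl replicate 1 and 1 lower without shControl replicate 2 or shZDHHC8 replicate 1. Its BH3-only killers BIK and HRK rose by 1.18 and 0.82, and BOK fell by 0.61. Crosslink repair and homologous recombination had 4 of 33 tested members called higher and 5 lower, and XRCC3 rose by 0.38. Its lower count was 1 without either shControl replicate and 2 without shZDHHC8 replicate 1, and its higher count 2 without either shControl replicate. Nucleotide excision repair had 7 of 20 tested members called higher and 3 lower, and GTF2H1, a TFIIH subunit, rose by 0.70. Its higher count was 4, 3 and 4 without shControl replicate 1, shControl replicate 2 or shZDHHC8 replicate 2, and its lower count 1 without shControl replicate 1. After scaling to a common total it had 4 members called higher and 5 lower. Reads of TYMS and XRCC3 could in part belong to overlapping genes.

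Most NF-kB feedback and chemokine genes fell, while most of the IL1 family rose. NF-kB subunits and feedback genes had 2 of 23 tested members called higher and 16 lower. NF-kB dimers are released by signals from cytokine receptors and switch on both inflammatory genes and their own inhibitors. TNFAIP3, the ubiquitin-editing inhibitor A20, had 2.12 and 2.14 FPKM in shZDHHC8 cells against 10.2 and 10.99 FPKM in shControl cells (log2 change -1.89 ± 0.061 SE, limma adjusted p = 2.47e-07). NFKBIA, the inhibitor IkB-alpha, had 21.3 and 19.6 FPKM in shZDHHC8 cells against 42.0 and 47.2 FPKM in shControl cells (log2 change -1.09 ± 0.087 SE, limma adjusted p = 1.98e-05). RELB and NFKB2, the subunits of the non-canonical dimer, fell by 1.33 and 1.16, and BIRC3 by 1.17, while RELA, CHUK and IKBKG were not called. Chemokines had 1 of 8 tested members called higher and 6 lower. CXCL1, a neutrophil attractant, had 33.8 and 33.7 FPKM in shZDHHC8 cells against 146 and 144 FPKM in shControl cells (log2 change -2.07 ± 0.045 SE, limma adjusted p = 5.71e-08). CXCL2 had 1.59 and 2.39 FPKM in shZDHHC8 cells against 10.9 and 11.4 FPKM in shControl cells (log2 change -2.03 ± 0.12 SE, limma adjusted p = 3.7e-06). CXCL8 fell by 0.76, and CCL26, an eosinophil attractant, rose instead, at 3.67 and 4.31 FPKM (shZDHHC8) against 0.822 and 0.640 FPKM (shControl) (log2 change 1.53). CXCL1, CXCL2 and CXCL3 are closely similar neighbours, so reads may be shared among them. The IL6 and STAT3 list had 1 of 18 tested members called higher and 8 lower. SOCS3, a feedback inhibitor of STAT3, had 2.88 and 3.29 FPKM in shZDHHC8 cells against 10.2 and 10.6 FPKM in shControl cells (log2 change -1.49 ± 0.072 SE, limma adjusted p = 1.54e-06). BCL3, a nuclear IkB protein, fell by 1.76, and the receptor IL6R rose by 0.88. The IL1 family had 8 of 12 tested members called higher and 2 lower. IL1A had 33.5 and 35.2 FPKM in shZDHHC8 cells against 10.5 and 9.99 FPKM in shControl cells (log2 change 1.65 ± 0.057 SE, limma adjusted p = 3.11e-07). IL1B had 5.74 and 6.10 FPKM in shZDHHC8 cells against 0.846 and 0.943 FPKM in shControl cells (log2 change 1.87 ± 0.078 SE, limma adjusted p = 7.48e-07). The accessory receptor IL1RAP rose by 1.67 and IL36B by 1.49, while the signalling receptor IL1R1 fell, with 3.34 and 4.40 FPKM in shZDHHC8 cells against 10.9 and 10.5 FPKM in shControl cells (log2 change -1.27 ± 0.11 SE, limma adjusted p = 3.06e-05), as did its adaptor MYD88 by 0.91. TNFAIP3, BIRC3, RELA, CHUK, IKBKG and IL6 overlap other listed genes, which makes their values uncertain.

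**Figure D4:**
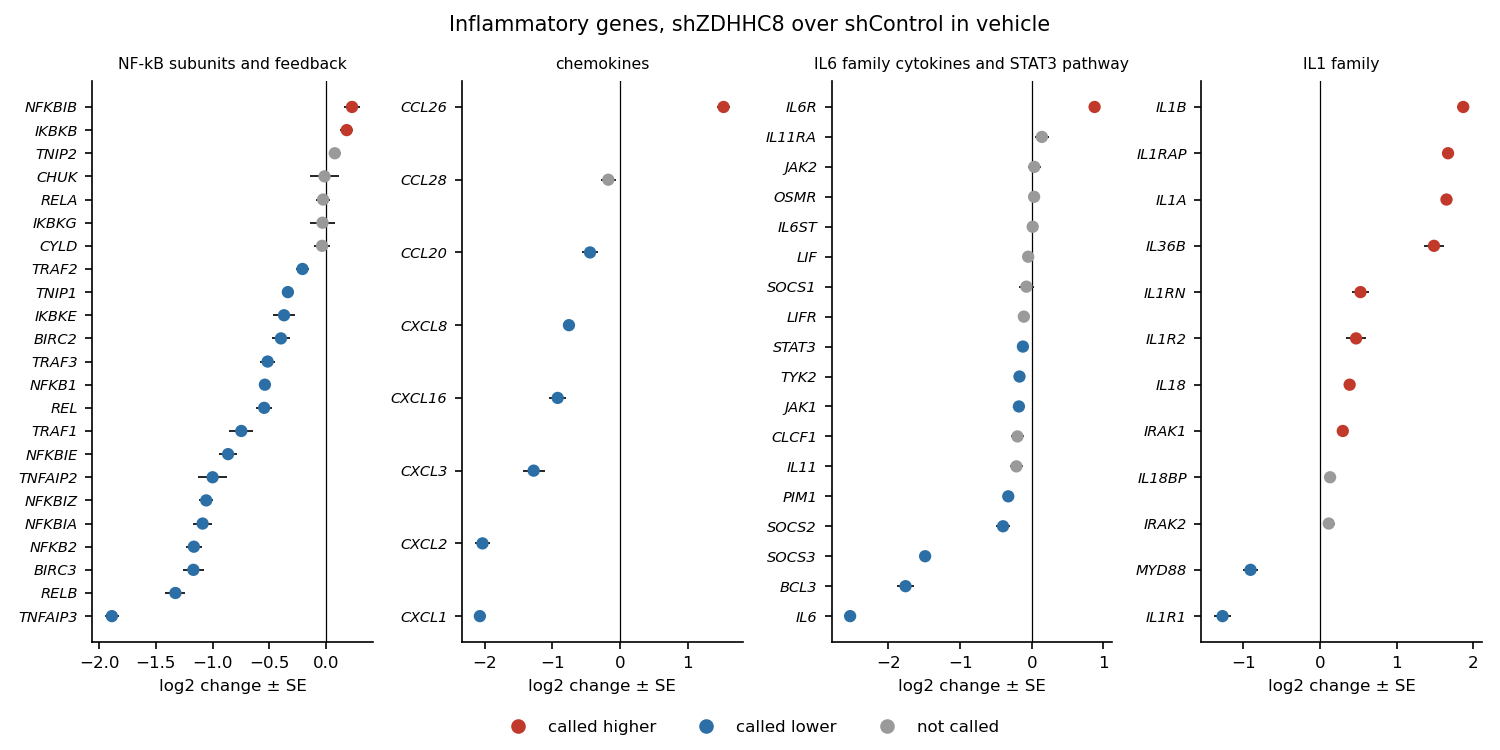
Log2 change (x axis, shZDHHC8 over shControl, ± SE from limma) of tested genes in 4 inflammatory lists, coloured by call. NF-kB and chemokine genes lie mainly left of 0, down to CXCL1 at -2.07, and the IL1 family lies mainly right of 0, up to IL1B at 1.87.

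The promoter windows of the NF-kB, chemokine and IL6 lists were searched for the kappa-B core GGNNTTTCC on both strands. It was in 15 of 42 (35.7%), against 6.6% of the windows of tested genes. Of these 15, 15 were called lower, with a median log2 change of -1.09, and of the 27 without it 11, with a median of -0.11. Over all genes tested 25% were called lower. Members without the core include receptors and kinases such as IL6ST, JAK1, JAK2 and CHUK. The lists were written from knowledge of the pathway and with earlier results known, so the split only describes these lists and was not tested. The windows of IL6 (chr7:22727102-22727161, plus strand, match at -72), CXCL1 (chr4:73869289-73869348, plus, -78), CXCL2 (chr4:74099239-74099298, minus, -77) and TNFAIP3 (chr6:137867166-137867225, plus, -67) are shown because they belong to members with some of the largest falls. The match is in capitals, on the gene's strand except in TNFAIP3, where it is read on the other strand.
IL6: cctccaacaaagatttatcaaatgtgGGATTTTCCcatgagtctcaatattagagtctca
CXCL1: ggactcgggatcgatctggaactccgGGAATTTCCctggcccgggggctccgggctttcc
CXCL2: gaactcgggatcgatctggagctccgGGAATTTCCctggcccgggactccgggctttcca
TNFAIP3: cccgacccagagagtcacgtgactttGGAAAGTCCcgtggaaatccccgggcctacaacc
CXCL1, CXCL2 and TNFAIP3 each have a second match farther on.

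Interferon-stimulated genes had 5 of 37 tested members called higher and 16 lower. IFITM1, IFITM2 and IFITM3, neighbours of near-identical sequence, fell by 1.42, 1.09 and 1.08, and OAS3 by 0.76, whereas IFI27 had 26.0 and 23.8 FPKM in shZDHHC8 cells against 13.1 and 11.4 FPKM in shControl cells (log2 change 0.97 ± 0.084 SE, limma adjusted p = 3.02e-05). MHC class I presentation had 4 of 21 tested members called higher and 7 lower, with 4 lower without shControl replicate 1. The shares called over all genes tested were 26.7% higher and 25% lower. B2M, the invariant light chain, rose by 0.31, and TAPBP, the tapasin that loads peptides, fell by 0.69. Complement had 3 of 12 tested members called higher and 7 lower, with C1R at 1.00 and 0.992 FPKM (shZDHHC8) against 3.15 and 3.06 FPKM (shControl) (log2 change -1.04) and CFB falling by 0.70. The loci of IFITM1, IFITM2, IFITM3, OAS3, C1R and CFB overlap other genes, so their values are uncertain.

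Growth-factor signalling genes moved apart from one another. Immediate-early factors had 5 of 21 tested members called higher and 9 lower. FOS had 16.0 and 17.3 FPKM in shZDHHC8 cells against 48.7 and 59.2 FPKM in shControl cells (log2 change -1.63 ± 0.16 SE, limma adjusted p = 6.27e-05). JUNB had 45.4 and 47.0 FPKM in shZDHHC8 cells against 127 and 127 FPKM in shControl cells (log2 change -1.44 ± 0.047 SE, limma adjusted p = 2.59e-07). FOSL1 and JUN, other AP-1 subunits, rose by 0.81 and 0.37, and KLF4 by 0.99. MAPK feedback genes, which ERK signalling induces to limit itself, had 10 of 18 tested members called higher and 1 lower. DUSP5, a nuclear ERK phosphatase, had 26.1 and 26.5 FPKM in shZDHHC8 cells against 10.3 and 9.63 FPKM in shControl cells (log2 change 1.32 ± 0.05 SE, limma adjusted p = 4.13e-07). DUSP4 had 17.5 and 18.2 FPKM in shZDHHC8 cells against 7.26 and 7.31 FPKM in shControl cells (log2 change 1.19 ± 0.052 SE, limma adjusted p = 9.15e-07). SPRY4 and SPRY2, inhibitors of receptor signalling, rose by 1.14 and 1.10, and the ETS factors ETV5 and ETV4 by 1.05 and 1.00. EGF ligands and ERBB receptors had 3 of 11 tested members called higher and 4 lower. EGFR had 21.7 and 22.4 FPKM in shZDHHC8 cells against 36.1 and 37.4 FPKM in shControl cells (log2 change -0.71 ± 0.049 SE, limma adjusted p = 8.41e-06). ERBB2 was the most abundant receptor, with mean levels of 1052 FPKM in shZDHHC8 cells against 1205 in shControl cells, with a log2 change of -0.20 whose call was lost without either replicate 2 (limma adjusted p = 0.0533 without the shControl one and 0.055 without the shZDHHC8 one). The ligand HBEGF and the EGFR inhibitor ERRFI1 rose by 0.77 and 0.81. SRC-family kinases, many of them palmitoylated proteins, and protein kinase A had 3 of 13 tested members called higher and 5 lower, with 3 lower without shControl replicate 1 or either shZDHHC8 replicate. PRKACA, the catalytic subunit of protein kinase A, had 11.1 and 10.9 FPKM in shZDHHC8 cells against 27.4 and 28.5 FPKM in shControl cells (log2 change -1.26 ± 0.068 SE, limma adjusted p = 2.8e-06). SRC had 6.10 and 5.39 FPKM in shZDHHC8 cells against 12.4 and 13.2 FPKM in shControl cells (log2 change -1.04 ± 0.074 SE, limma adjusted p = 1.12e-05). FYN rose by 0.61. The shares called over all genes tested were 26.7% higher and 25% lower. Overlap with another gene of the table makes the values of JUNB, SPRY4, ETV4, ERBB2 and ERRFI1 uncertain.

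YAP targets and extracellular matrix genes fell more often than they rose, which did not extend to integrins and proteases. YAP and TEAD targets had 4 of 21 tested members called higher and 14 lower, with 2 higher without shControl replicate 2. TEAD2, one of the DNA-binding partners of YAP, had 2.53 and 2.65 FPKM in shZDHHC8 cells against 10.3 and 10.2 FPKM in shControl cells (log2 change -1.65 ± 0.069 SE, limma adjusted p = 7.36e-07). AXL, a receptor kinase, had 52.2 and 52.1 FPKM in shZDHHC8 cells against 129.8 and 129.6 FPKM in shControl cells (log2 change -1.30 ± 0.046 SE, limma adjusted p = 3.41e-07). CCN2 and CCN1, the targets used most as a readout, fell by 0.67 and 0.49, while ANKRD1, another, rose by 0.72. TGF-beta ligands, receptors and SMADs had 8 of 23 tested members called higher and 11 lower. ID3, a BMP target, had 13.0 and 11.9 FPKM in shZDHHC8 cells against 42.4 and 43.2 FPKM in shControl cells (log2 change -1.70 ± 0.083 SE, limma adjusted p = 1.55e-06). SMAD6, the inhibitory BMP SMAD, fell by 1.15, while the receptor TGFBR2 rose by 0.74 against a fall of TGFBR1 by 0.82. Extracellular matrix had 8 of 31 tested members called higher and 22 lower. LOXL1, which crosslinks elastin, and the perlecan gene HSPG2 fell by 1.19 and 0.97. FN1, fibronectin, went the other way, with 305 and 294 FPKM in shZDHHC8 cells against 108 and 112 FPKM in shControl cells (log2 change 1.44 ± 0.044 SE, limma adjusted p = 2.17e-07). LUM, the proteoglycan lumican, rose by 1.55 and TNC, tenascin C, by 0.95. Integrins had 6 of 15 tested members called higher and 5 lower. The epithelial ITGB6, which activates latent TGF-beta, had 0.959 and 1.05 FPKM in shZDHHC8 cells against 4.99 and 4.98 FPKM in shControl cells (log2 change -1.58 ± 0.11 SE, limma adjusted p = 7.62e-06). ITGB8 fell by 1.24, and the fibronectin receptor chain ITGA5 and the vitronectin receptor chain ITGAV rose by 0.63 and 0.58. Metalloproteinases, their inhibitors and the plasminogen system had 8 of 18 tested members called higher and 5 lower. MMP2 rose as given above while MMP1 fell, and the tissue plasminogen activator PLAT rose by 1.00. Reads of TEAD2, CCN2, LOXL1, ITGB6, ITGB8, ITGA5 and MMP1 could in part belong to overlapping genes.

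Keratins had 2 of 12 tested members called higher and 9 lower. KRT5, the partner of KRT14 in basal cells, had 25.2 and 24.8 FPKM in shZDHHC8 cells against 74.0 and 73.0 FPKM in shControl cells (log2 change -1.52 ± 0.056 SE, limma adjusted p = 3.95e-07). KRT80 fell by 0.95, and KRT15 rose, with 5.40 and 5.69 FPKM in shZDHHC8 cells against 2.18 and 1.59 FPKM in shControl cells (log2 change 1.19 ± 0.11 SE, limma adjusted p = 3.62e-05). The keratin genes share sequence with each other, and KRT6A, KRT14 and KRT17 have close copies. Desmosomes and hemidesmosomes had 7 of 17 tested members called higher and 7 lower, with 4 higher without shControl replicate 1. JUP, plakoglobin, a relative of beta-catenin, fell by 0.53 and PKP2 by 0.56, while COL17A1 and LAMB3 of the hemidesmosome rose by 0.86 and 0.76. Claudins and tight junctions had 4 of 16 tested members called higher and 6 lower, against 26.7% and 25% of all genes tested. CLDN4 had 13.2 and 10.9 FPKM in shZDHHC8 cells against 3.04 and 3.31 FPKM in shControl cells (log2 change 1.64 ± 0.099 SE, limma adjusted p = 4.76e-06), and CLDN1 rose by 0.66. KRT80 and PKP2 overlap other listed genes, which makes their values uncertain.

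Most genes of the stress, amino acid and aminoacyl-tRNA lists written around ATF4 rose. Control of these members by ATF4 was not tested. ATF4 is translated when eIF2-alpha is phosphorylated and switches on genes of amino acid supply. Its regulators and stress targets had 14 of 22 tested members called higher and 1 lower. NUPR1, a small stress protein, had 39.9 and 43.7 FPKM in shZDHHC8 cells against 11.4 and 11.1 FPKM in shControl cells (log2 change 1.81 ± 0.06 SE, limma adjusted p = 2.59e-07). CHAC1, which degrades glutathione, had 34.5 and 31.5 FPKM in shZDHHC8 cells against 10.8 and 10.1 FPKM in shControl cells (log2 change 1.57 ± 0.063 SE, limma adjusted p = 6.04e-07). TRIB3, a pseudokinase, had 55.1 and 57.3 FPKM in shZDHHC8 cells against 25.3 and 24.3 FPKM in shControl cells (log2 change 1.15 ± 0.051 SE, limma adjusted p = 9.62e-07). ATF4 itself rose by 0.94. Amino acid synthesis and transport had 16 of 26 tested members called higher and 4 lower. PHGDH and PSAT1, the first steps of serine synthesis, rose by 1.08 and 1.03, MTHFD2 of the mitochondrial folate path by 1.01 and ASNS, asparagine synthetase, by 0.95. SHMT2, the mitochondrial serine hydroxymethyltransferase, fell by 0.69. Aminoacyl-tRNA synthetases had 16 of 23 tested members called higher and 1 lower. WARS1 had 109.6 and 111 FPKM in shZDHHC8 cells against 62.7 and 58.2 FPKM in shControl cells (log2 change 0.86 ± 0.051 SE, limma adjusted p = 4.53e-06). The loci of MTHFD2, ASNS, SHMT2 and WARS1 overlap other genes, so their values are uncertain.

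The composite element of C/EBP and ATF factors, TGATGNAA, was searched in the promoter windows of these 3 lists on both strands. It was in 14 of 55 (25.5%), against 1.68% of the windows of tested genes. Of the 14 with it 11 were called higher, and of the 41 without it 26, with medians of 0.38 and 0.41. The windows of CHAC1 (chr15:40953236-40953295, plus strand, match at -209), ASNS (chr7:97872443-97872502, minus, -68) and IARS1 (chr9:92293677-92293736, minus, -13), 1 from each list, are shown with the match in capitals, read on the gene's strand in ASNS and on the other strand in CHAC1 and IARS1.
CHAC1: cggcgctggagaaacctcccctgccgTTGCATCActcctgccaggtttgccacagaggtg
ASNS: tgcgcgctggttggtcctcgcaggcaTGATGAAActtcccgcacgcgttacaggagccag
IARS1: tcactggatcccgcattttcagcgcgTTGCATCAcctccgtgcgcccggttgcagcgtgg

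The unfolded protein response had 8 of 29 tested members called higher and 9 lower, shares close to those over all genes tested, and 6 higher and 12 lower after scaling to a common total. CREB3L2 and ATF6, membrane-held factors, fell by 0.86 and 0.73 and the chaperone HYOU1 by 0.63, while EDEM1, which hands misfolded glycoproteins to degradation, had 18.5 and 19.5 FPKM in shZDHHC8 cells against 11.04 and 10.97 FPKM in shControl cells (log2 change 0.74 ± 0.055 SE, limma adjusted p = 1.32e-05). Cytosolic chaperones had 12 of 35 tested members called higher and 6 lower. Against the fall of HSP90AB1 stood rises of HSPE1, the mitochondrial co-chaperone counted in this list, by 0.64 and DNAJB4 by 0.53. The proteasome had 24 of 33 tested members called higher and 1 lower. PSMD8, a lid subunit, had 175 and 184 FPKM in shZDHHC8 cells against 129 and 119 FPKM in shControl cells (log2 change 0.53 ± 0.059 SE, limma adjusted p = 0.000112), and PSMD11 was the member that fell, by 0.47. Overlap with another gene of the table makes the values of ATF6, EDEM1, HSPE1, DNAJB4 and PSMD11 uncertain.

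The list of glutathione and thioredoxin genes written around NRF2 had 17 of 25 tested members called higher and 2 lower. Control of these members by NRF2 was not tested. TXNRD1, thioredoxin reductase, had 182 and 196 FPKM in shZDHHC8 cells against 72.1 and 75.0 FPKM in shControl cells (log2 change 1.35 ± 0.057 SE, limma adjusted p = 7.99e-07). GCLC, the rate-limiting step of glutathione synthesis, had 17.4 and 18.0 FPKM in shZDHHC8 cells against 9.59 and 9.82 FPKM in shControl cells (log2 change 0.80 ± 0.059 SE, limma adjusted p = 1.23e-05), and PRDX5 rose by 0.92. HMOX1, haem oxygenase, fell, with 11.4 and 10.6 FPKM in shZDHHC8 cells against 18.9 and 19.6 FPKM in shControl cells (log2 change -0.75 ± 0.063 SE, limma adjusted p = 2.52e-05). NADPH and aldo-keto reductase genes had 9 of 18 tested members called higher and 2 lower, with AKR1C1, AKR1C2 and AKR1C3 the largest. The antioxidant response core TGACNNNGC was in 6 of 33 member windows of both lists (18.2%), against 15.3% of the windows of tested genes. TXNRD1, which rose most among the 6, holds it at chr12:104215654-104215713 (plus strand, match at -99, in capitals).
TXNRD1: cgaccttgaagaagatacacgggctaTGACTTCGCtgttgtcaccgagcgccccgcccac
Iron handling had 9 of 14 tested members called higher and 1 lower. STEAP1 and STEAP3 of the STEAP metalloreductase family rose by 1.17 and 1.14. Metallothioneins and metal transporters had 6 of 11 tested members called higher and 1 lower. MT1X had 58.1 and 63.8 FPKM in shZDHHC8 cells against 21.7 and 22.2 FPKM in shControl cells (log2 change 1.43 ± 0.098 SE, limma adjusted p = 8.43e-06). SLC31A1, the copper importer, and ATOX1, a copper chaperone, rose by 0.91 and 1.03. Reads of TXNRD1, GCLC, AKR1C2, STEAP3, SLC31A1 and ATOX1 could in part belong to overlapping genes.

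Lysosomal genes were more often higher. The hydrolases and their activators had 22 of 42 tested members called higher and 6 lower, with summed levels of 2791 and 2755 FPKM in shZDHHC8 cells against 1797 and 1814 in shControl cells. PSAP had 767 and 764 FPKM in shZDHHC8 cells against 359.6 and 353 FPKM in shControl cells (log2 change 1.10 ± 0.04 SE, limma adjusted p = 3.58e-07). LIPA, the acid lipase that frees cholesterol from its esters, had 16.6 and 19.0 FPKM in shZDHHC8 cells against 8.34 and 9.11 FPKM in shControl cells (log2 change 0.95 ± 0.075 SE, limma adjusted p = 1.83e-05). ASAH1, acid ceramidase, and CTSB, cathepsin B, rose by 0.84 and 0.74. HEXA rose by 0.84, and by 0.54 without shZDHHC8 replicate 2. Membrane proteins, the V-ATPase and TFEB factors had 18 of 29 tested members called higher and 7 lower. The proton pump subunits ATP6V0B and ATP6V1G1 rose by 0.73 and 0.71 and the tetraspanin CD63 by 0.65, while MITF, a relative of TFEB, had 4.80 and 5.39 FPKM in shZDHHC8 cells against 10.3 and 10.2 FPKM in shControl cells (log2 change -0.89 ± 0.065 SE, limma adjusted p = 1.28e-05). Autophagy had 13 of 29 tested members called higher and 5 lower. MAP1LC3B, which coats autophagosomes, and the receptor SQSTM1 rose by 0.75 and 0.56, and ATG9A and ATG12 fell by 0.63 and 0.62. LIPA, ASAH1, CTSB, HEXA, ATP6V0B, CD63, MAP1LC3B, SQSTM1, ATG9A and ATG12 overlap other listed genes, which makes their values uncertain.

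TFEB and its relatives bind the CLEAR element in lysosomal promoters. Its core TCACGTGA, a palindrome, was in 10 of 74 member windows of these 3 lists (13.5%), against 1.97% of the windows of tested genes. Of the 10 with it 9 were called higher, with a median log2 change of 0.38, and of the 64 without it 32, with a median of 0.18. The windows of ATP6V1G1 (chr9:114587684-114587743, plus strand, core at -59), SCPEP1 (chr17:56978077-56978136, plus, -28), CTSA (chr20:45891283-45891342, plus, -26) and LAMP1 (chr13:113297184-113297243, plus, -29) show the core in capitals.
ATP6V1G1: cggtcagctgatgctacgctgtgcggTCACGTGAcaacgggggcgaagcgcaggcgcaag
SCPEP1: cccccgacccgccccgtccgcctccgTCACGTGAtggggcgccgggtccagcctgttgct
CTSA: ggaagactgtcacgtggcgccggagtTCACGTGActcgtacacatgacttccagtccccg
LAMP1: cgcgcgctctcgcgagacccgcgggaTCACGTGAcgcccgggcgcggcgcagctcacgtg
A match of letters is a description of the window and shows no binding. Every list searched for a motif was written from knowledge of its pathway, so a share above that of all tested windows could be partly built in.

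**Figure D5:**
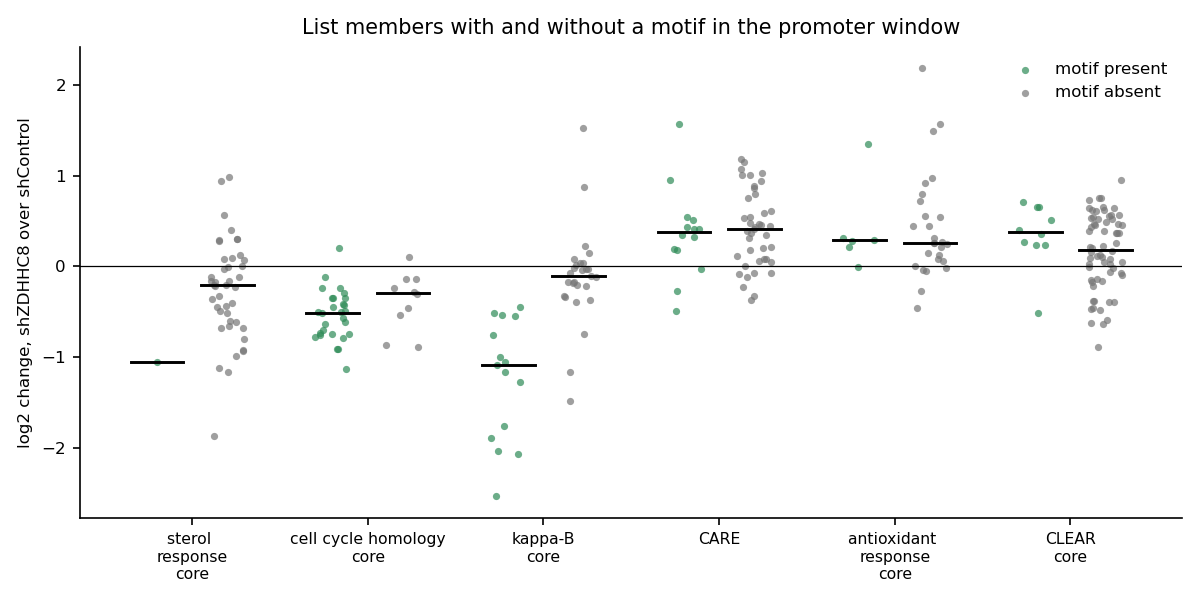
Log2 change (y axis, shZDHHC8 over shControl) of list members with (left of each pair) and without (right) the motif of their list in the RefSeq promoter window, with bars at the medians. The medians differ most for the kappa-B core, at -1.09 and -0.11. They are close for CARE, the composite element of C/EBP and ATF factors, and for the antioxidant response core. The lists were written from knowledge of the pathways, so the gaps describe these lists only.

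Nuclear genes of protein synthesis and respiration rose, by small steps, more often than they fell. Cytosolic ribosomal proteins had 67 of 79 tested members called higher and 1 lower. Their summed level was 29490 and 29880 FPKM in shZDHHC8 cells against 24190 and 22730 in shControl cells. RPL35A had 206 and 266 FPKM in shZDHHC8 cells against 130.2 and 122 FPKM in shControl cells (log2 change 0.89 ± 0.12 SE, limma adjusted p = 0.000328), RPL24 and RPL23 rose by 0.69 and 0.69, and RPS15 was the member that fell, by 0.35. These genes have many processed pseudogenes, so single members are uncertain. Mitochondrial ribosomal proteins had 43 of 77 tested members called higher and 2 lower, but 32 higher and 4 lower after scaling to a common total. MRPL15 rose by 0.72. Translation initiation factors had 24 of 38 tested members called higher and 2 lower, with EIF6, which keeps the large subunit apart, and EIF3D rising by 0.67 and 0.60. Ribosome biogenesis had 25 of 40 tested members called higher and 4 lower, with 2 lower without either shControl replicate. NOP16 of the nucleolus had 24.6 and 23.4 FPKM in shZDHHC8 cells against 12.4 and 11.8 FPKM in shControl cells (log2 change 0.93 ± 0.053 SE, limma adjusted p = 3.65e-06). Nuclear genes of the respiratory chain had 53 of 75 tested members called higher and 5 lower. COX7A2 of complex IV had 78.6 and 88.8 FPKM in shZDHHC8 cells against 49.1 and 44.7 FPKM in shControl cells (log2 change 0.82 ± 0.081 SE, limma adjusted p = 6.04e-05), and UQCR10 of complex III rose by 0.71. The transcripts of the mitochondrial genome did not share this direction, with 2 of 13 tested members called higher and 7 lower. MT-CO3 had 2860 and 3077 FPKM in shZDHHC8 cells against 4236 and 3908 FPKM in shControl cells (log2 change -0.46 ± 0.059 SE, limma adjusted p = 0.00029). MT-CO1 and MT-CO2 fell by 0.40 and 0.35. Glycolysis had 9 of 22 tested members called higher and 1 lower, with the glucose transporter SLC2A1 rising by 0.49 and PGK1 by 0.47. Hypoxia targets had 10 of 20 tested members called higher and 0 lower. ADM, adrenomedullin, had 23.6 and 25.5 FPKM in shZDHHC8 cells against 12.8 and 12.9 FPKM in shControl cells (log2 change 0.88 ± 0.052 SE, limma adjusted p = 4.25e-06), and CA12, a carbonic anhydrase, rose by 0.92. The loci of RPL35A, EIF6, NOP16, UQCR10, MT-CO3, SLC2A1 and PGK1 overlap other genes, so their values are uncertain.

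Splicing regulators were more often lower, with 1 of 33 tested members called higher and 15 lower, 9 of them without shControl replicate 1. SRSF4 had 25.6 and 26.4 FPKM in shZDHHC8 cells against 48.8 and 46.2 FPKM in shControl cells (log2 change -0.84 ± 0.051 SE, limma adjusted p = 4.6e-06), and HNRNPA0 and HNRNPD fell by 0.53 and 0.44. ABC exporters and LRRC8 channels, which move drugs including platinum compounds across the membrane, had 6 of 12 tested members called higher and 5 lower, but 3 higher and 3 lower without shControl replicate 2. LRRC8A, the obligatory subunit of the volume-regulated anion channel, had 50.5 and 48.7 FPKM in shZDHHC8 cells against 22.9 and 22.8 FPKM in shControl cells (log2 change 1.09 ± 0.044 SE, limma adjusted p = 6.45e-07). LRRC8D, the subunit that lets larger solutes through, had 9.30 and 9.92 FPKM in shZDHHC8 cells against 16.1 and 15.1 FPKM in shControl cells (log2 change -0.64 ± 0.069 SE, limma adjusted p = 9.07e-05). The exporter ABCC1 fell by 0.88 and ABCC3 rose by 0.80. Overlap with another gene of the table makes the values of HNRNPD and LRRC8A uncertain.

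Whether a knockdown difference was the same under cisplatin was tested by the interaction, the knockdown change under cisplatin minus that in vehicle, which was called for 4104 of 13495 genes (30.4%). For ZDHHC8 the interaction was 0.43 ± 0.19 SE (limma adjusted p = 0.111). For CTNNB1 it was 0.34 ± 0.068 SE (limma adjusted p = 0.00676), with a knockdown change of 0.21 under cisplatin. The interactions of ZDHHC8 and CTNNB1 were not rerun under the alternatives. Of the 24 genes with the largest changes in vehicle it was called for 21; since they were picked for their size in vehicle, the choice itself favours smaller changes under cisplatin. MILR1 (0.15, limma adjusted p = 0.277), SP140 (-0.12, limma adjusted p = 0.371) and C17orf49 (-0.06, limma adjusted p = 0.904) had no call, SP140 gaining one with a pseudocount of 0.1. The estimate changed sign in VAV3, at -2.41 in vehicle and 0.48 under cisplatin (interaction 2.90 ± 0.17 SE, limma adjusted p = 3.3e-05), and in the uncertain NDUFC2-KCTD14, at 2.70 and -0.51. IL6 fell further under cisplatin, by 3.54 on the log2 scale (interaction -1.0 ± 0.11 SE, limma adjusted p = 0.000565). HSP90AB1, from the list of largest differences of level, had an interaction of -0.00034 ± 0.065 SE (limma adjusted p = 0.998).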

How the data were processed

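RNA of 143B cells was measured by RNA-seq in 8 libraries, 2 a group, and the 4 vehicle libraries carry the comparison. The authors deposited 1 table for the whole series, aligned to hg38 per the submitters' processing notes, with a value for each of 21123 genes. Its unit was read as FPKM, since values are not whole, are given beside gene positions and sum to 361060 to 391016 a library; the sources used here name no aligner, quantifier or strandedness, and depth is unknown. The 13495 genes with 1 FPKM or more in any 2 libraries entered the test, made with limma 3.58.1 in R 4.3.3 on log2(FPKM + 1), computed from the deposited values. The model had 1 mean for each of the 4 groups and moderated variances with a trend (4 residual and 4.64 prior degrees of freedom; log2 changes had a median SE of 0.079). P-values were adjusted over all tested genes by the Benjamini-Hochberg method. The script was tested on simulated data.

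Named genes were ZDHHC8 and CTNNB1, the 12 largest rises and 12 largest falls of called protein-coding genes with non-overlapping groups and a mean of 5 FPKM or more in a group, the 8 rises and 8 falls with the largest difference of level, and up to 6 called members of each of 60 lists. The palmitoyltransferase, depalmitoylase and beta-catenin lists were taken whole. Genes outside this rule (ATF4, AURKA, AURKB, CCN1, CCN2, CDCA8, CDK1, CDKN1A, CHUK, CTSA, ERBB2, FOSL1, IARS1, IKBKG, JUN, LAMP1, NPC1, PLK1, RELA, RPS15, SCPEP1, SHMT2 and, from the marker lists, CD68, CDH2, COL1A1, KRT18, RUNX2, SPARC, SPP1 and VIM) were chosen after their values were seen. Of 1632 list memberships 1576 matched the table and 1469 were tested. The groups, lists and rules were chosen with earlier results of these data known. Promoter windows came from RefSeq (GRCh38.p14) and matched 9954 tested genes. Alternatives were a pseudocount of 0.1, no filter, no variance trend, the 4 vehicle libraries alone, the replicate number as a block, 2 scalings, a minimum log2 change of 1, and each vehicle library left out in turn. Some members of the lists are not reported here.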

Additional observations from a re-analysis of the deposited data

Results flagged for a closer look

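The knockdown change differed between cisplatin and vehicle for CTNNB1 and 21 of the 24 genes with the largest changes in vehicle. Calls are by an interaction test (limma adjusted p below 0.05 over all tested genes), which called 30.4% of all tested genes. The 24 genes were picked for their size in vehicle, which favours calls and smaller changes under cisplatin. The interaction of CTNNB1 was not rerun under the alternatives. Values are log2 interactions, the change under cisplatin minus that in vehicle, ± SE. Rises that were smaller under cisplatin had -1.37 ± 0.09 for TM4SF19, -0.96 ± 0.096 for ANGPTL4, -1.08 ± 0.097 for UPP1, -0.65 ± 0.1 for CNIH3 and -0.55 ± 0.1 for AOX1. Falls that were smaller under cisplatin had 1.99 ± 0.17 for IDO1, 2.33 ± 0.17 for SAMD11, 1.19 ± 0.089 for KRT17, 1.32 ± 0.19 for UGT1A6, 0.86 ± 0.12 for EGR1, 0.82 ± 0.19 for UPK3B, 0.70 ± 0.11 for WNT10A, 0.67 ± 0.17 for KRT14 and 0.67 ± 0.11 for C3. Rises that were larger under cisplatin had 0.85 ± 0.12 for GPNMB, 0.60 ± 0.12 for DPP4, 0.57 ± 0.13 for AKR1C2 and 0.30 ± 0.068 for MMP2. The fall of IL6 was larger under cisplatin, at -1.0 ± 0.11. The estimate had opposite signs in VAV3, with an interaction of 2.90 ± 0.17, in CTNNB1, with 0.34 ± 0.068, and in NDUFC2-KCTD14, with -3.21 ± 1. The interaction of NDUFC2-KCTD14 lost its call when any 1 vehicle library was left out, without the filter and without a variance trend, and that of KRT14 lost it with a pseudocount of 0.1 and without shControl replicate 1.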

How the results depend on the processing

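No result changed sign with a call under any alternative run. With an added minimum log2 change of 1, 180 genes were higher and 220 lower, in place of 3602 and 3373. Leaving out 1 vehicle library gave 2815 to 3209 higher and 2585 to 2869 lower genes, log2 changes of -1.18 to -0.67 for ZDHHC8, and -0.16 to -0.11 for CTNNB1 with no call. The CTNNB1 change of -0.13 also lost its call in the 4 vehicle libraries alone (limma adjusted p = 0.073), without a variance trend (0.0893) and with the replicate block (0.0591). Whether libraries of the same number share more than that number was looked at in 1 pair only. Deviations from the group means of shZDHHC8 replicate 1 and shControl replicate 1 correlated at 0.00327 across genes, which does not settle it for the cisplatin libraries. The replicate block gave 3477 higher and 3247 lower genes, and the interaction of the 24 largest changes was called 21 times with it and 19 to 21 times elsewhere. Of 431 other named genes, 20, 19, 12 and 20 lost their call without shControl replicate 1, shControl replicate 2, shZDHHC8 replicate 1 and shZDHHC8 replicate 2. The cause of these losses was not tested. With depth unknown, no limit of detection can be given for low genes.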
